A study of Saccharomyces cerevisiae with 8 samples.

Results

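The transcriptome of a budding yeast strain that overexpressed SSZ1 and lacked both IRE1 and SCJ1 (SSZ1OEΔire1Δscj1, n = 3) was compared with that of a strain lacking IRE1 alone (Δire1, n = 3). These 6 arrays of 8 were taken by the genotype in their titles, and all genes they measured are described. The remaining 2 arrays came from a strain that overexpressed SSZ1 and lacked IRE1 but kept SCJ1 (SSZ1OEΔire1), and they serve here to show which levels were already shifted without the loss of SCJ1. Every strain, the reference included, lacked IRE1, so no strain with a working unfolded-protein sensor is among them. The labels do not say what drives SSZ1, nor how many clones of a strain were used. Cells of Saccharomyces cerevisiae grew in synthetic medium at 30 °C with shaking at 200 rpm to an OD600 of 0.2 to 0.3, which the labels call early log phase, and each RNA sample was hybridised to 1 one-colour array. The RNA preparations are described as independent without saying that they came from separate cultures, so the p-values reflect how these samples varied, and that variation may be technical.

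Ssz1 is an Hsp70-like protein that forms the ribosome-associated complex with the J-protein Zuo1 and assists nascent chains, and it was also named Pdr13 because an excess of it activates the drug-resistance transcription factor Pdr1. Scj1 is a J-domain co-chaperone in the lumen of the endoplasmic reticulum (ER), where it works with the Hsp70 Kar2 in folding newly imported proteins. Ire1 senses unfolded ER proteins and splices HAC1 mRNA, so cells without it cannot raise ER chaperones by that route.

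Levels are given as log2 processed signal minus the 75th percentile of the array's non-control probes, and a difference is the mean of SSZ1OEΔire1Δscj1 minus the mean of Δire1 on that log2 scale, with its standard error (SE). A gene was said to have risen or fallen where limma's test gave an adjusted p below 0.05 over 6244 genes tested. On this basis 2390 genes (38.3%) differed between the strains, 1333 higher (21.3%) and 1057 lower (16.9%) in SSZ1OEΔire1Δscj1. At least 2-fold differences were mostly rises, with 297 genes higher (4.76%) and 46 lower (0.737%). The number of genes that differed was 1438 without Δire1 replicate 3, 1560 without SSZ1OEΔire1Δscj1 replicate 1, and 2085 with the SSZ1OEΔire1 arrays left out of the fit. Saturated spots numbered 0, and 90.5% to 95.9% of non-control spots stood well above background. The 3 arrays of each strain did not overlap for 3160 genes (50.6%), which is the background for statements that arrays of the 2 strains lay apart.

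The slide had 2 rows of arrays, and all 3 SSZ1OEΔire1Δscj1 arrays lay in row 2 with Δire1 replicate 3, while Δire1 replicates 1 and 2 and both SSZ1OEΔire1 arrays lay in row 1. Negative control spots had medians of 3.55 to 5.05 in row 1 and 9.49 to 14.4 in row 2. Δire1 replicates 1 and 3, in different rows, differed by a median of 0.056 over genes, whereas replicate 2 differed from them by 0.21 and 0.20. Within row 2 alone, 655 of the 1333 rises and 370 of the 1057 falls passed the test, with Δire1 represented by 1 array assumed to vary like the others. For gene lists described against Δire1, the counts or the median within row 2 are therefore given as well. They all rest on Δire1 replicate 3, so they are no clean control for genes in which that array stood apart from its group. LEU2 differed by 1.20 with all Δire1 arrays and by −0.46 within row 2, and PHO84 by −5.18 and −4.36.

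The genes altered by construction behaved according to the labels. SSZ1 read 3.06, 2.79 and 3.05 in Δire1 and 5.42, 5.19 and 5.51 in SSZ1OEΔire1Δscj1, a rise of 2.40 ± 0.15 (SE, adjusted p = 0.000182), and the SSZ1OEΔire1 arrays at 5.61 and 6.07 lay above both. SCJ1 read 0.62, 0.33 and 0.62 in Δire1, and no SSZ1OEΔire1Δscj1 array had it well above background, which puts it at least 317-fold lower (adjusted p = 2.82e-08). On none of the 8 arrays was the IRE1 probe well above background. HAC1, whose mRNA Ire1 splices, differed by 0.20 ± 0.10 (adjusted p = 0.158). Of the nearest measured genes on either side of the 3 altered loci in the RefSeq R64 table, LAM4 beside IRE1 rose by 0.50 (adjusted p = 0.00937), but was not called within row 2 (0.0569) or with the row as a block (0.101). RRP3 beside SSZ1 (−0.23, adjusted p = 0.0214) and GAS3 beside SCJ1 (−0.46, adjusted p = 0.0499) fell. The call for RRP3 was lost without Δire1 replicate 1 or 3 or SSZ1OEΔire1Δscj1 replicate 1 or 2, and that for GAS3 without any 1 array but Δire1 replicate 2, with adjusted p up to 0.0748 and 0.153, and RRP3 was not called within row 2 either (0.173).

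The largest rises included genes for lipid and drug export, spore-wall genes and transport genes, and the largest falls were led by nutrient transporters. The plot of the 20 largest rises and the 20 largest falls shows all 8 arrays for each of these genes.

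**Figure D1:**
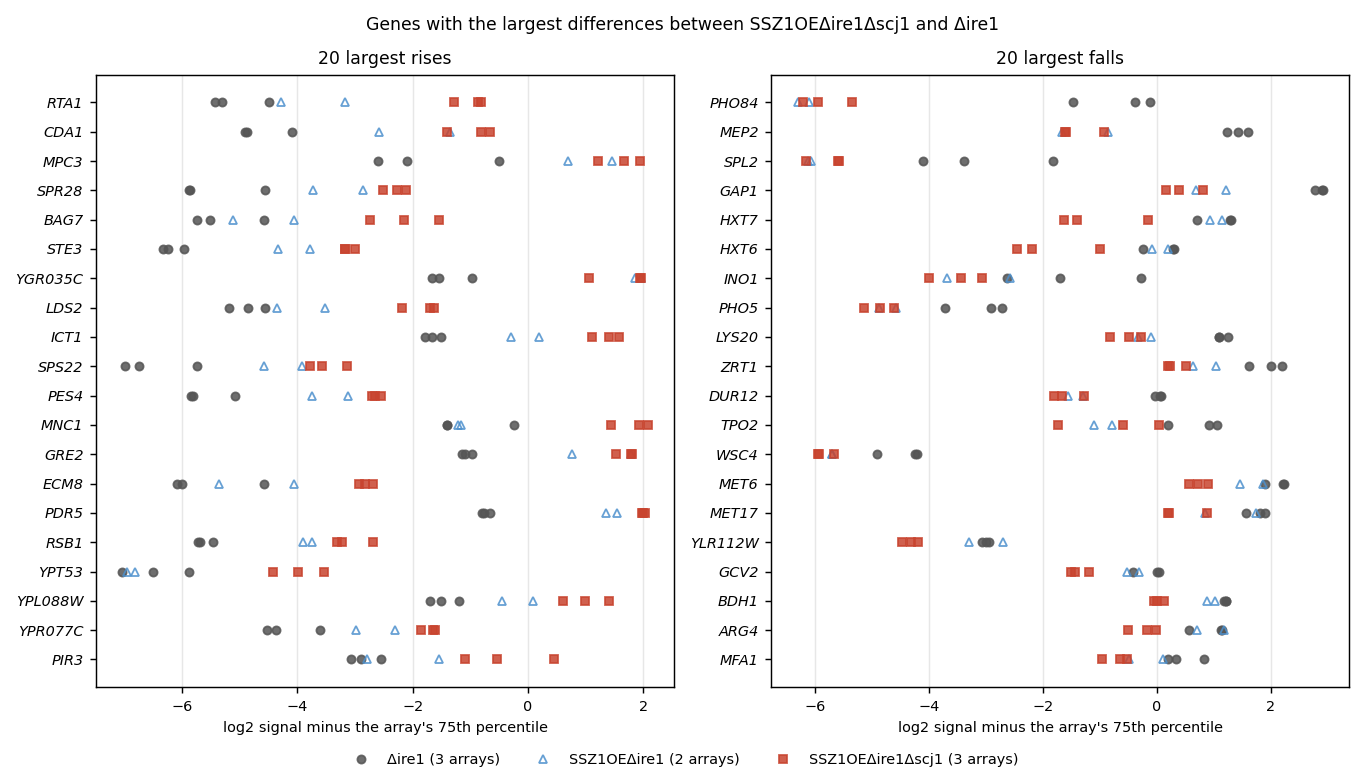
Level of each gene (log2 signal minus the array's 75th percentile, x axis) on every array for the 20 largest rises and the 20 largest falls between Δire1 (grey circles) and SSZ1OEΔire1Δscj1 (red squares), with SSZ1OEΔire1 as open triangles. RTA1 rose by 4.09 and PHO84 fell by 5.18 on the log2 scale, and the triangles lie among the squares for PHO84 and MEP2 but among the circles for YPT53, MNC1 and HXT7.

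Lipid-related genes that Pdr1 and Pdr3 switch on rose, whereas drug transporter genes went both ways. The gene lists here and below were chosen with earlier results of these data known. Their counts and medians describe these arrays and do not test a group. All 10 lipid-related targets on the list rose, with a median difference of 1.87 against 0.019 over all genes tested, and 8 of them did so within row 2. RTA1, of a family of lipid-translocating exporters, read −5.32, −4.49 and −5.42 in Δire1, −4.28 and −3.17 in SSZ1OEΔire1, and −0.87, −0.81 and −1.28 in SSZ1OEΔire1Δscj1, a rise of 4.09 ± 0.34 (adjusted p = 0.000486). ICT1, a lysophosphatidic acid acyltransferase, read −1.51, −1.67 and −1.79 in Δire1, −0.29 and 0.19 in SSZ1OEΔire1, and 1.57, 1.41 and 1.12 in SSZ1OEΔire1Δscj1, a rise of 3.02 ± 0.16 (adjusted p = 0.000105). For both genes the 3 strains did not overlap, and the SSZ1OEΔire1 arrays lay in between.

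The multidrug exporter PDR5 read −0.80, −0.76 and −0.66 in Δire1, 1.35 and 1.54 in SSZ1OEΔire1, and 2.02, 1.97 and 1.99 in SSZ1OEΔire1Δscj1, a rise of 2.73 ± 0.08 (adjusted p = 3.43e-06). The exporter genes YOR1 and SNQ2 rose by 2.09 ± 0.13 and 1.48 ± 0.09 (adjusted p = 0.000182 for both). PDR10 (0.85) was the remaining ABC exporter gene that rose, among 14 tested. The 3 ABC genes that fell were the a-factor exporter STE6 (−0.64), PDR12 (−0.43) and YBT1 (−0.44), the last not called without Δire1 replicate 1 (0.0565) or 3 (0.0638). Within row 2 the 4 rises were called and none of these falls was (adjusted p = 0.0510, 0.0866 and 0.0541), and without Δire1 replicate 2 there were 5 falls. Of 16 drug and polyamine transporters of the major facilitator family 6 rose and 4 fell (median −0.13), with 4 and 0 within row 2. Of 11 regulators of drug resistance, 6 rose, with RPN4, the activator of proteasome genes, highest at 1.24 ± 0.14 and PDR3 and PDR1 at 0.56 and 0.31. Within row 2 the regulators that rose numbered 3, without PDR1 (adjusted p = 0.146).

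Several genes of the cell wall rose, led by stress-inducible enzymes and proteins. GSC2, the alternative catalytic subunit of β-glucan synthase, read −0.26, 0.31 and −0.34 in Δire1, −0.83 and −0.26 in SSZ1OEΔire1, and 2.33, 2.48 and 1.92 in SSZ1OEΔire1Δscj1, a rise of 2.34 ± 0.23 (adjusted p = 0.000825). NCW2, a wall protein, read 0.27, 0.84 and 0.25 in Δire1, 0.69 and 0.82 in SSZ1OEΔire1, and 2.69, 3.15 and 2.33 in SSZ1OEΔire1Δscj1, a rise of 2.27 ± 0.23 (adjusted p = 0.000883). YPS3, a yapsin-type aspartyl protease at the cell surface, rose by 2.18 ± 0.29 (adjusted p = 0.00219), and its relative YPS1 rose by 1.101. In these 4 genes the SSZ1OEΔire1 arrays lay within or near the Δire1 range, and every SSZ1OEΔire1Δscj1 array lay above both other strains.

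Of 28 glucan and chitin enzymes 12 rose and 4 fell (median 0.25), with 7 and 3 within row 2. The chitin synthase CHS1 rose by 1.21 ± 0.11, the glucan-chitin crosslinker CRH1 by 1.15 ± 0.15 and GAS4, a glucan elongase of the spore wall, by 1.42 ± 0.20. Those that fell were SCW11 (−0.86), the chitinase CTS1 (−0.67), GAS3 (−0.46) and the septum chitin synthase CHS2 (−0.35). The falls numbered 2 in the fits without Δire1 replicate 1, without Δire1 replicate 3, without SSZ1OEΔire1Δscj1 replicate 1 or replicate 2, and without either SSZ1OEΔire1 array, and CHS2 was called in none of these (adjusted p up to 0.128). Among 24 wall proteins 8 rose and 2 fell (median 0.31), with 8 and 1 within row 2, the 2 being TIR3 (−0.49) and PRY3 (−0.65). Neither of these falls was called without Δire1 replicate 1 or 3, or without SSZ1OEΔire1Δscj1 replicate 1 or 2 (adjusted p up to 0.103 and 0.0657), and without Δire1 replicate 2 there were 4 falls. In the Slt2 cell-wall integrity pathway the kinase SLT2 rose by 0.89 ± 0.11, its phosphatase PTP2 by 1.23 ± 0.13 and the kinase-like KDX1 by 1.35 ± 0.20, while the sensor gene WSC4 fell by 1.39 ± 0.19 (adjusted p = 0.00225). Over the 23 genes of that pathway 6 rose and 1 fell (median 0.17, and 0.19 within row 2). Called genes made up 30.4% of them, 41.7% of the wall proteins and 57.1% of the glucan and chitin enzymes, against 38.3% over all genes.

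Targets of calcineurin, the calcium-dependent phosphatase that activates the transcription factor Crz1, rose as well. Of 19 calcium and calcineurin genes 8 rose and 0 fell, with a median of 0.27, and 3 rose within row 2. Scaling on array medians left 5 rises. The share called on the list was 42.1%, near the 38.3% over all genes, of which 21.3% rose. CMK2, a calmodulin-dependent kinase, read −0.81, −0.58 and −0.75 in Δire1, −0.85 and −0.91 in SSZ1OEΔire1, and 0.94, 0.74 and 0.44 in SSZ1OEΔire1Δscj1, a rise of 1.42 ± 0.13 (adjusted p = 0.000588). RCN2, a calcineurin regulator, read −1.19, −1.05 and −1.15 in Δire1, −1.02 and −1.07 in SSZ1OEΔire1, and 0.15, 0.44 and −0.14 in SSZ1OEΔire1Δscj1, a rise of 1.28 ± 0.14 (adjusted p = 0.00109). PMC1, the vacuolar calcium pump, read 0.01, −0.15 and −0.03 in Δire1, −0.19 and −0.09 in SSZ1OEΔire1, and 0.78, 0.85 and 0.61 in SSZ1OEΔire1Δscj1, a rise of 0.80 ± 0.09 (adjusted p = 0.00113). In each of these 3 genes both strains that kept SCJ1 read alike, and all 3 arrays of SSZ1OEΔire1Δscj1 stood above them. RCN1 rose by 0.79 ± 0.14 and CRZ1 itself by 0.24 (adjusted p = 0.0290). Neither was called within row 2 (0.0862 and 0.215), and the call for CRZ1 was lost without either SSZ1OEΔire1 array (0.0512), Δire1 replicate 1 (0.0999) or 3 (0.0814), or SSZ1OEΔire1Δscj1 replicate 1 (0.103). The genes for the calcineurin subunits CNA1 (−0.06), CMP2 (0.31) and CNB1 (0.09) did not pass the test.

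Chaperones and folding enzymes of the ER lumen changed little. Of 19 such genes 3 rose, and the deleted SCJ1 was the single gene that fell (median 0.035), and within row 2 the counts were 1 and 1. ROT1, needed for folding of cell-wall enzymes, rose by 0.57 ± 0.07 (adjusted p = 0.00163). The Kar2 exchange factors LHS1 (0.33, adjusted p = 0.0421) and SIL1 (0.22, adjusted p = 0.0302) were the others. Neither call held without either SSZ1OEΔire1 array, without Δire1 replicate 1 or 3, or without SSZ1OEΔire1Δscj1 replicate 1 or 3, where the adjusted p reached 0.135 and 0.109, and SIL1 was also lost without SSZ1OEΔire1Δscj1 replicate 2 (0.0630). KAR2, the ER Hsp70, read 2.18, 2.11 and 2.15 in Δire1, 2.64 and 2.83 in SSZ1OEΔire1, and 1.99, 1.99 and 2.0 in SSZ1OEΔire1Δscj1, a difference of −0.15 ± 0.07 (adjusted p = 0.128). PDI1, the main disulfide isomerase, differed by 0.09 ± 0.09. DER1 of the ER-associated degradation machinery rose by 0.70 ± 0.10 (adjusted p = 0.00232), with UFD1 (0.45), UBX2 (0.38), YOS9 (0.34) and NPL4 (0.27) the remaining 4 of the 5 genes of that list that rose among 19. The share called on that list, 26.3%, was below the 38.3% over all genes. The count of rises was 3 without Δire1 replicate 1 or 3, 2 without SSZ1OEΔire1Δscj1 replicate 1 or 2, and 8 without Δire1 replicate 2. Within row 2 it was 1, with adjusted p = 0.0529 for UFD1, 0.162 for UBX2, 0.0768 for YOS9 and 0.208 for NPL4. In the cytosol, the Hsp90 co-chaperone AHA1 showed a pattern like that of KAR2 across strains, at 0.31, 0.24 and 0.28 in Δire1, 1.21 and 1.53 in SSZ1OEΔire1, and 0.29, 0.15 and 0.14 in SSZ1OEΔire1Δscj1.

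Genes of meiosis and sporulation were prominent among the largest rises, although the cells grew vegetatively. Of 21 tested 12 rose and 2 fell, with a median of 0.67, and within row 2 the counts were 9 and 1. Quantile normalization gave 7 and 4 with a median of 0.31. CDA1, a chitin deacetylase of the spore wall, read −4.91, −4.10 and −4.87 in Δire1, −2.59 and −1.34 in SSZ1OEΔire1, and −0.66, −1.41 and −0.82 in SSZ1OEΔire1Δscj1, a rise of 3.66 ± 0.37 (adjusted p = 0.000833). SPR28, a sporulation septin, read −5.88, −4.56 and −5.87 in Δire1, −3.73 and −2.87 in SSZ1OEΔire1, and −2.12, −2.51 and −2.27 in SSZ1OEΔire1Δscj1, a rise of 3.14 ± 0.38 (adjusted p = 0.00167). LDS2, a spore-wall gene, read −4.85, −4.56 and −5.19 in Δire1, −4.35 and −3.52 in SSZ1OEΔire1, and −1.70, −1.63 and −2.18 in SSZ1OEΔire1Δscj1, a rise of 3.03 ± 0.26 (adjusted p = 0.000511). In these 3 genes Δire1 replicate 2 was the highest of its group, and no array of SSZ1OEΔire1Δscj1 overlapped it.

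NDT80, the transcription factor that switches on the middle sporulation genes, read −3.26, −2.68 and −3.22 in Δire1, −3.36 and −3.10 in SSZ1OEΔire1, and −1.65, −1.79 and −2.17 in SSZ1OEΔire1Δscj1, a rise of 1.18 ± 0.19 (adjusted p = 0.00417). The septin SPR3 (2.64 ± 0.25), the dityrosine enzyme DIT1 (1.84 ± 0.22), SPS22 (2.998 ± 0.34) and SPS2 (1.88 ± 0.35) also rose. IME2, the meiotic kinase, differed by 0.51 and SPO11, which makes meiotic DNA breaks, by −0.37, and neither passed the test. The 2 that fell were SPS4 (−0.88, adjusted p = 0.0217) and UME6, a regulator of early meiotic genes (−0.81, adjusted p = 0.0233), and neither call was stable to leaving out 1 array. SPS4 was not called without Δire1 replicate 3 or SSZ1OEΔire1Δscj1 replicate 1 or 3 (adjusted p up to 0.0714), nor UME6 without Δire1 replicate 1 or 3 or SSZ1OEΔire1Δscj1 replicate 2 or 3 (up to 0.0710). SPO74, of the spindle pole body in meiosis, had no Δire1 array well above background and was at least 5.02-fold higher in SSZ1OEΔire1Δscj1 (adjusted p = 0.000440).

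Further rises with a bound were those of YFR057W (at least 8.72-fold, adjusted p = 0.00410), YKL177W (at least 5.81-fold), the transporter gene HXT14 (at least 3.41-fold) and YGL258W-A (at least 3.16-fold). YKL177W overlaps STE3, so the signals of the 2 probes may not be separate measurements. In the other direction YDL071C was at least 1.67-fold lower, with 2 of 3 Δire1 arrays well above background.

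Mating-type genes moved in opposite directions. Of the 7 genes typical of a cells 6 fell (median −0.72), and 4 fell within row 2. Of the 5 genes typical of alpha cells 3 rose (median 1.05), all 3 also within row 2. STE3, the receptor for a-factor, read −6.24, −5.97 and −6.33 in Δire1, −4.34 and −3.79 in SSZ1OEΔire1, and −2.999, −3.17 and −3.18 in SSZ1OEΔire1Δscj1, a rise of 3.07 ± 0.16 (adjusted p = 0.000105). MF(ALPHA)1, an alpha-factor precursor, read −6.69, −5.62 and −6.70 in Δire1, −6.48 and −5.34 in SSZ1OEΔire1, and −4.26, −4.37 and −4.14 in SSZ1OEΔire1Δscj1, a rise of 2.08 ± 0.36 (adjusted p = 0.00520). AFB1, which encodes a blocker of a-factor, read −2.42, −2.55 and −2.31 in Δire1, −2.68 and −2.49 in SSZ1OEΔire1, and −1.29, −1.42 and −1.43 in SSZ1OEΔire1Δscj1, a rise of 1.05 ± 0.09 (adjusted p = 0.000542). All 3 arrays of SSZ1OEΔire1Δscj1 were above every other array for these genes. MF(ALPHA)2 (−0.42, adjusted p = 0.294) and SAG1 (0.15, adjusted p = 0.364) did not pass the test.

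On the a-cell side, the a-factor precursor MFA1 fell by 1.16 ± 0.22 (adjusted p = 0.00650) and the agglutinin subunit AGA2 fell by 0.78 ± 0.10. STE2, the alpha-factor receptor, read 0.92, 0.67 and 0.96 in Δire1, 0.92 and 0.56 in SSZ1OEΔire1, and −0.15, 0.08 and 0.31 in SSZ1OEΔire1Δscj1, so it fell by 0.77 ± 0.15 (adjusted p = 0.00748). BAR1, the protease that degrades alpha-factor, read −0.26, −0.45 and −0.20 in Δire1, 0.19 and −0.28 in SSZ1OEΔire1, and −1.17, −1.02 and −0.88 in SSZ1OEΔire1Δscj1, so it fell by 0.72 ± 0.14 (adjusted p = 0.00748). STE6 fell by 0.64 ± 0.12. With levels scaled on spike-in spots 0 of the 7 a-cell genes fell past the test, with a median of −0.33. The call for MFA2 (−0.65, adjusted p = 0.0496) was lost without any 1 of the 3 Δire1 arrays or without SSZ1OEΔire1Δscj1 replicate 1 or 2, where the adjusted p reached 0.130, and ASG7 differed by 0.04.

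Daughter-specific genes, many of whose products dissolve the septum after division, fell as a group. Of 17 on the list 9 fell and 0 rose (median −0.50), with 8 falls within row 2. DSE4, a glucanase, read 1.51, 1.05 and 1.44 in Δire1, 1.69 and 1.32 in SSZ1OEΔire1, and 0.27, 0.22 and 0.65 in SSZ1OEΔire1Δscj1, so it fell by 0.95 ± 0.17 (adjusted p = 0.00595). AMN1, an inhibitor of mitotic exit, read −0.82, −0.92 and −0.84 in Δire1, −0.84 and −1.29 in SSZ1OEΔire1, and −1.999, −1.91 and −1.70 in SSZ1OEΔire1Δscj1, so it fell by 1.01 ± 0.13 (adjusted p = 0.00201). Differences were −0.86 ± 0.11 for the glucanase SCW11, −0.89 ± 0.11 for DSE2 and −0.68 ± 0.13 for EGT2, also of late division. For DSE4 and AMN1 the 3 arrays of SSZ1OEΔire1Δscj1 lay below all 5 others. Scaling on spike-in spots left 2 falls and gave 1 rise among the 17 genes, with a median of −0.10.

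**Figure D2:**
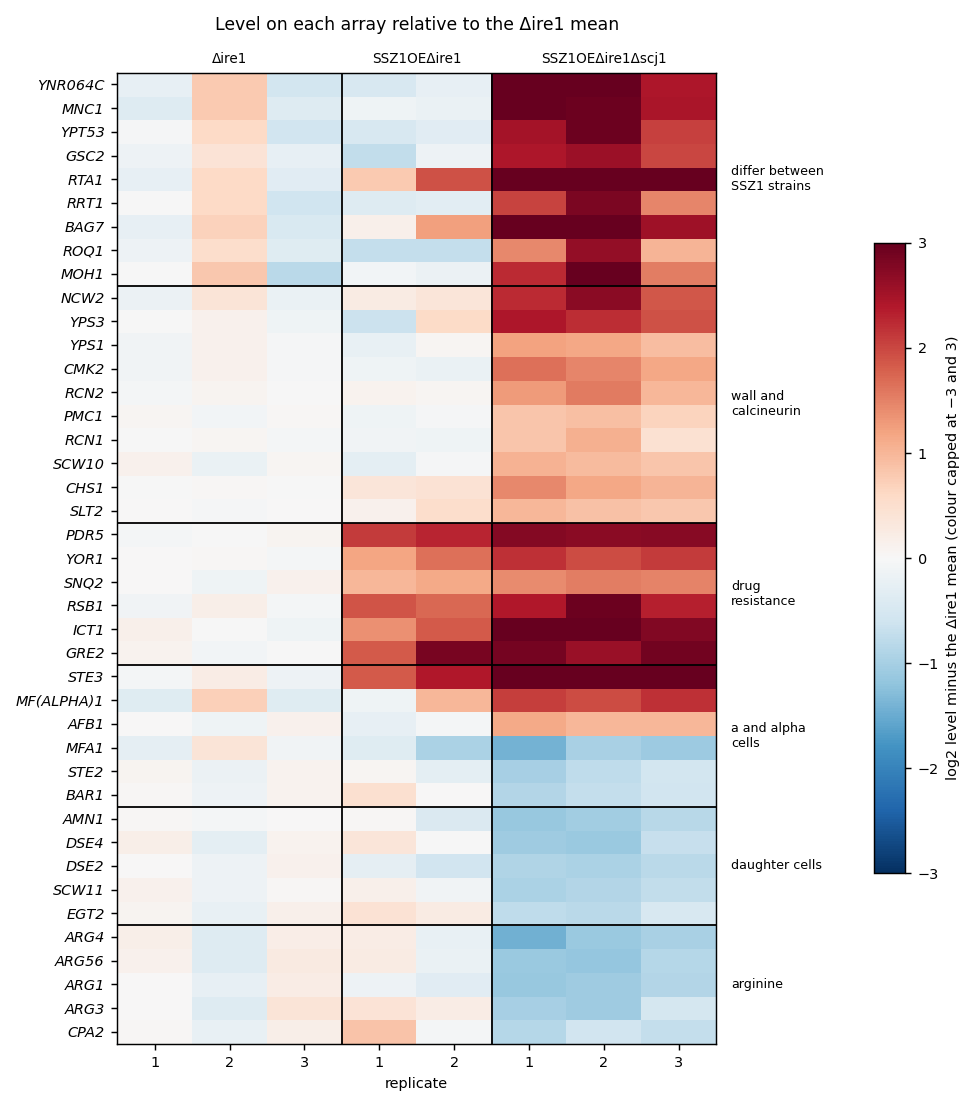
Level of each gene (rows) on each of the 8 arrays (columns, by strain and replicate) as log2 difference from the mean of the 3 Δire1 arrays, red for higher and blue for lower, with colour capped at −3 and 3. Calcineurin genes such as CMK2 and daughter genes such as DSE4 are pale in SSZ1OEΔire1 and coloured in all 3 SSZ1OEΔire1Δscj1 arrays, whereas PDR5 and STE3 are red in both strains that overexpress SSZ1.

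Transporters for phosphate, ammonium, amino acids and glucose were among the largest falls, but their gene lists went both ways. Of 23 phosphate genes 10 fell and 3 rose (median −0.31, and −0.29 within row 2). Of 34 nitrogen-regulated genes 15 fell and 4 rose (median −0.27, and −0.26). Of 17 hexose transporter and glucose-sensing genes 3 fell and 6 rose (median 0.16, and 0.61). Of 17 copper and zinc genes 2 fell and 4 rose (median 0.086, and 0.044). Called genes made up 56.5%, 55.9%, 52.9% and 35.3% of these lists, against 38.3% over all genes. PHO84, the high-affinity phosphate transporter, read −0.38, −0.13 and −1.47 in Δire1, −6.11 and −6.31 in SSZ1OEΔire1, and −5.94, −5.35 and −6.22 in SSZ1OEΔire1Δscj1, so it fell by 5.18 ± 0.36 (adjusted p = 0.000404). MEP2, an ammonium permease, read 1.23, 1.60 and 1.43 in Δire1, −0.86 and −1.67 in SSZ1OEΔire1, and −1.59, −0.93 and −1.61 in SSZ1OEΔire1Δscj1, so it fell by 2.80 ± 0.25 (adjusted p = 0.000581). The general amino acid permease GAP1 (−2.41 ± 0.19), the zinc transporter ZRT1 (−1.63 ± 0.18), the acid phosphatase PHO5 (−1.75 ± 0.26) and the urea-degrading enzyme DUR12 (−1.62 ± 0.14) fell as well. In PHO84 and MEP2 both strains with SSZ1 overexpression overlapped each other and lay far below Δire1.

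The glucose transporters HXT7 and HXT6 had another pattern. HXT7 read 0.71, 1.29 and 1.30 in Δire1, 1.14 and 0.94 in SSZ1OEΔire1, and −1.63, −0.15 and −1.41 in SSZ1OEΔire1Δscj1, so it fell by 2.17 ± 0.37 (adjusted p = 0.00491). HXT6 fell by 1.99 ± 0.36, and since the coding sequences of these 2 genes are nearly identical, their probes may not be separate measurements. Here both strains with SCJ1 read alike and SSZ1OEΔire1Δscj1 replicate 2 was the mildest of its group. Within row 2 alone neither call held (adjusted p = 0.0666 and 0.0724). Further large falls were those of INO1 for inositol synthesis (−1.96, adjusted p = 0.0334) and the polyamine exporter gene TPO2 (−1.49, adjusted p = 0.0307). Neither call was stable to leaving out 1 array. INO1 was no longer called without Δire1 replicate 1 (0.0638) or 3 (0.0739), nor without SSZ1OEΔire1Δscj1 replicate 1 (0.105), 2 (0.0524) or 3 (0.0750). TPO2 was not called without Δire1 replicate 1 (0.0910), Δire1 replicate 3 (0.0886) or SSZ1OEΔire1Δscj1 replicate 2 (0.0600), nor within row 2 (0.155).

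Genes for the synthesis of several amino acids fell, with unlike patterns across strains. Of 9 lysine genes 7 fell (median −0.88), and all 7 did so within row 2. LYS20, homocitrate synthase at the entry of the pathway, read 1.09, 1.08 and 1.26 in Δire1, −0.10 and −0.33 in SSZ1OEΔire1, and −0.82, −0.28 and −0.48 in SSZ1OEΔire1Δscj1, so it fell by 1.67 ± 0.14 (adjusted p = 0.000491). Of 13 arginine genes 6 fell (median −0.50), also 6 within row 2. ARG4, argininosuccinate lyase, read 1.12, 0.56 and 1.15 in Δire1, 1.17 and 0.71 in SSZ1OEΔire1, and −0.51, −0.18 and −0.02 in SSZ1OEΔire1Δscj1, so it fell by 1.18 ± 0.21 (adjusted p = 0.00533). ARG1, argininosuccinate synthetase, read 3.64, 3.38 and 3.84 in Δire1, 3.48 and 3.28 in SSZ1OEΔire1, and 2.50, 2.55 and 2.76 in SSZ1OEΔire1Δscj1, so it fell by 1.02 ± 0.13 (adjusted p = 0.00201). For LYS20 the SSZ1OEΔire1 arrays lay well below Δire1, and for ARG4 and ARG1 they lay within its range or close to it. Scaling on spike-in spots left 2 falls among the lysine genes and 3 among the arginine genes, with medians of −0.48 and −0.10.

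Of 20 genes of serine, glycine, threonine and one-carbon metabolism 13 fell (median −0.43, 10 within row 2), led by GCV2 of the glycine cleavage system (−1.25 ± 0.14) and SHM2, serine hydroxymethyltransferase (−1.003 ± 0.09). Of 12 branched-chain genes 8 fell (median −0.56, 7 within row 2), among them LEU9 (−1.13) and ILV3 (−0.84), and 5 fell without Δire1 replicate 1 or 3 or without SSZ1OEΔire1Δscj1 replicate 1. Of 21 purine genes 14 fell (median −0.41), and 5 did so within row 2. Scaling on spike-in spots left 2 falls among the serine and one-carbon genes (median −0.03). It gave 1 fall and 1 rise among the branched-chain genes (median −0.16), and 0 falls and 1 rise among the purine genes (median −0.01). The branched-chain rise was that of LEU2 (1.60 on that scale), which is also among the marker genes described below. The methionine synthase MET6 (−1.38 ± 0.15) fell, but of 27 methionine and sulfur genes 9 fell and 1 rose (median −0.24, also within row 2). Of 17 glutamate, glutamine and proline genes 4 fell and 1 rose (median −0.11, and −0.084 within row 2). Called shares were 37.0% and 29.4%, against 38.3% over all genes. Of 22 histidine and aromatic genes 14 fell and 2 rose (72.7% called, median −0.41, and −0.47 within row 2). The butanediol dehydrogenase BDH1 fell by 1.18 ± 0.08 (adjusted p = 0.000249).

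Of 33 vitamin and cofactor genes 14 rose and 5 fell (median 0.092), with 6 and 1 within row 2 and 8 and 7 after quantile normalization. The counts were 9 and 3 without Δire1 replicate 3, and the falls numbered 3 without Δire1 replicate 1 or SSZ1OEΔire1Δscj1 replicate 1. In the kynurenine route to NAD, BNA2, which opens the tryptophan ring, read −4.18, −3.93 and −4.17 in Δire1, −3.53 and −3.01 in SSZ1OEΔire1, and −2.03, −1.86 and −2.28 in SSZ1OEΔire1Δscj1, a rise of 2.04 ± 0.16 (adjusted p = 0.000440). BNA5 rose by 1.75 ± 0.19, BNA4 by 1.06 ± 0.14, BNA1 by 0.78 and BNA6 by 0.40, while BNA3 differed by 0.07 (adjusted p = 0.608). BNA6 was not called within row 2 (0.0807) or with the row as a block (0.103). The thiazole synthase gene THI4 rose by 1.86 ± 0.14 and the thiamine-regulated transporter gene THI73 by 1.09 ± 0.08.

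Of 18 genes for the use of maltose, sucrose and galactose 13 rose and 0 fell (median 0.72), and 9 rose within row 2. Quantile normalization gave 8 rises and 3 falls. In SSZ1OEΔire1 the median of these genes was already 0.56 above Δire1. Between the strains that overexpress SSZ1 their median difference was −0.018, with 2 genes higher and 0 lower in SSZ1OEΔire1Δscj1. MAL12 and MAL32, whose maltase sequences are nearly identical and whose probes may not be separate measurements, rose by 1.54 and 1.44, and the activator GAL4 rose by 1.84 ± 0.15. Of 16 genes of gluconeogenesis and the glyoxylate cycle 10 rose (median 0.59, 6 within row 2), with the regulator CAT8 at 1.72 ± 0.10 (adjusted p = 0.000182) and the lactate transporter JEN1 at 1.30 ± 0.18. That count was 4 after quantile normalization, 3 without Δire1 replicate 3, and 6 without Δire1 replicate 1 or SSZ1OEΔire1Δscj1 replicate 2. MPC3, a subunit of the mitochondrial pyruvate carrier, read −2.61, −0.51 and −2.09 in Δire1, 0.69 and 1.46 in SSZ1OEΔire1, and 1.22, 1.94 and 1.67 in SSZ1OEΔire1Δscj1, a rise of 3.34 ± 0.52 (adjusted p = 0.00354), with a wide spread in Δire1 owing to replicate 2.

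Of 32 vacuolar protease and autophagy genes 15 rose and 3 fell (median 0.32), with 8 and 2 within row 2. The receptors for ER-phagy ATG39 and ATG40 rose by 2.31 ± 0.31 and 2.01 ± 0.25 (adjusted p = 0.00225 and 0.00171). Against SSZ1OEΔire1, which kept SCJ1, they differed by 0.35 and 0.83 and did not pass the test (adjusted p = 0.524 and 0.0871). ATG8, the ubiquitin-like protein of the autophagosome membrane, rose by 1.15 ± 0.20 and the vacuolar protease PRB1 by 1.0035 ± 0.16, although neither passed the test within row 2 (adjusted p = 0.0660 and 0.0592). The 3 that fell were the vacuolar peptidases APE1 (−0.56), APE3 (−0.41) and DAP2 (−0.41). Without Δire1 replicate 1 or 3, or without SSZ1OEΔire1Δscj1 replicate 1 or 3, 1 of these falls was called, and the rises numbered 10 without Δire1 replicate 3.

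Gene families next to chromosome ends also rose. Of 11 COS genes, which encode membrane proteins of the endosomal route, 8 rose (median 0.67), 7 of them within row 2. COS1 read −1.55, −1.28 and −1.51 in Δire1, −1.67 and −1.33 in SSZ1OEΔire1, and −0.49, −0.35 and −0.64 in SSZ1OEΔire1Δscj1, a rise of 0.96 ± 0.13 (adjusted p = 0.00207). All 24 PAU genes rose (median 0.57, from 0.47 to 0.79), but none passed the test within row 2, 6 did without Δire1 replicate 3 and 9 without SSZ1OEΔire1Δscj1 replicate 1. Members of both families are near-identical in sequence, so counts over them do not rest on separate measurements.

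Genes of protein synthesis fell, in every called gene of the 4 lists below by less than 2-fold. Of 136 ribosomal protein genes 93 fell and 0 rose, with a median of −0.44, and 31 fell within row 2. Quantile normalization left 29 falls and a median of −0.11, and scaling on spike-in spots left 0 and a median of −0.04. RPS0A read 4.67, 4.28 and 4.69 in Δire1, 4.49 and 4.41 in SSZ1OEΔire1, and 3.78, 3.82 and 4.03 in SSZ1OEΔire1Δscj1, so it fell by 0.67 ± 0.13 (adjusted p = 0.00674, and 0.0537 after quantile normalization). Of 68 ribosome assembly factors 48 fell (median −0.31, 9 falls within row 2), of 39 translation factors 28 fell (median −0.38, 12 within row 2), and of 21 tRNA synthetase genes 20 fell (median −0.46, 10 within row 2). On the spike-in scale these 3 medians were 0.08, 0.02 and −0.06, and the translation factor and synthetase counts were 12 and 11 after quantile normalization. The synthetase count was also 11 without Δire1 replicate 3 and 13 without SSZ1OEΔire1Δscj1 replicate 1.

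Of 24 genes of glycolysis and fermentation 15 fell and 3 rose (median −0.46, and −0.49 within row 2). With the slide row as a block 7 fell and 2 rose. Phosphofructokinase PFK2 (−0.71 ± 0.11) and triose phosphate isomerase TPI1 (−0.60 ± 0.10) were among those that fell, and the 3 that rose were the minor pyruvate decarboxylase PDC6 (1.81), the pyruvate kinase PYK2 (0.68) and the glucokinase GLK1 (0.47). GLK1 was not called without Δire1 replicate 2 or 3 or SSZ1OEΔire1Δscj1 replicate 1 or 2 (adjusted p up to 0.0850). Nor was it called with the slide row as a block (adjusted p = 0.175). Quantile normalization left 5 falls and 4 rises, and TPI1 was not among those 5 (adjusted p = 0.148). On the spike-in scale 0 fell and 4 rose, with a median of −0.07.

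**Figure D3:**
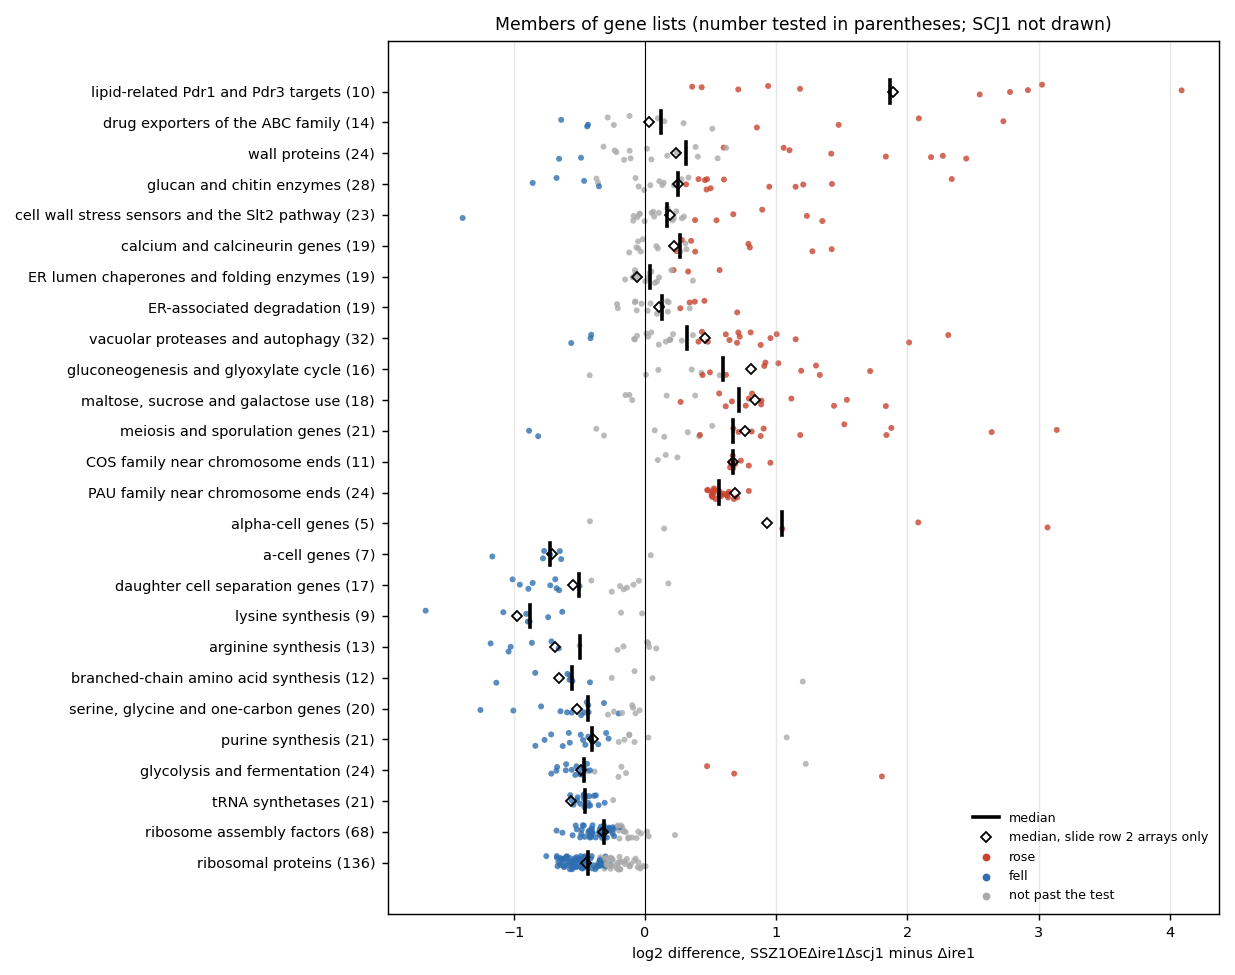
Log2 difference between SSZ1OEΔire1Δscj1 and Δire1 (x axis) for each tested member of 26 gene lists (rows, number tested in parentheses), coloured by the test, with the median as a bar and the median within slide row 2 as a diamond. All 10 lipid-related Pdr targets lie to the right of 0, and the ribosomal protein genes have a median of −0.44.

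The direction of a difference went with the brightness of the probe. Of 10 equal groups of genes by mean level, in the dimmest 151 rose and 35 fell (median 0.16), and in the brightest 30 rose and 306 fell (median −0.29). Within row 2 the medians of these groups were 0.39 and −0.31, and after quantile normalization −0.09 and −0.06. Ribosomal protein, glycolytic and synthetase genes have bright probes and many sporulation genes have dim ones, and the part of brightness in their differences was not tested. Scaling on spike-in spots added 0.40 to every difference, which moved the median of all genes from 0.019 to 0.42 and made 97.7% of the calls rises, against 55.8% as tested.

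**Figure D4:**
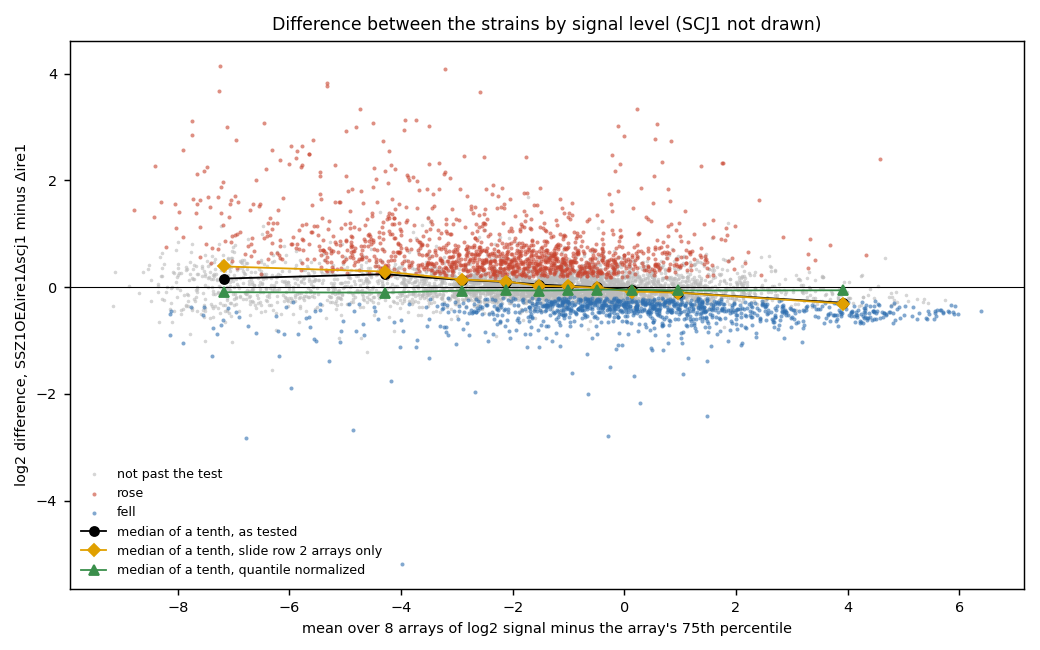
Log2 difference between SSZ1OEΔire1Δscj1 and Δire1 (y axis) of each tested gene against its mean level over 8 arrays (x axis, log2 signal minus the 75th percentile), with the median of each of 10 equal groups of genes as tested, within slide row 2 and after quantile normalization. The median as tested falls from 0.16 in the dimmest group to −0.29 in the brightest, and the quantile-normalized medians run between −0.10 and −0.05.

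The strains that overexpress SSZ1 were also tested against each other. By genotype they differ in SCJ1, but SSZ1 also read higher on every SSZ1OEΔire1 array than on any SSZ1OEΔire1Δscj1 array. The part of the SSZ1 level in the differences was not tested. Of the 6244 genes 740 differed (11.9%), 392 higher (6.28%) and 348 lower (5.57%) in SSZ1OEΔire1Δscj1. All SSZ1OEΔire1 arrays lay in row 1 and all SSZ1OEΔire1Δscj1 arrays in row 2, so the row and the strain can be separated only through the Δire1 arrays. With the row as a block 2 genes differed, SCJ1 and ANS1, and without SSZ1OEΔire1 replicate 1 the count was 3, the same genes and AHA1. The count was 216 without SSZ1OEΔire1 replicate 2, 127 without SSZ1OEΔire1Δscj1 replicate 1, 272 without replicate 2, 410 without Δire1 replicate 3 and 1526 without Δire1 replicate 2. The values below are to be read with these counts. ANS1 read −5.79, −5.66 and −5.80 in Δire1, −5.92 and −5.74 in SSZ1OEΔire1, and −3.69, −3.51 and −3.82 in SSZ1OEΔire1Δscj1, which put it 2.07 ± 0.10 above Δire1 (adjusted p = 9.43e-05) and 2.16 above SSZ1OEΔire1 (adjusted p = 0.000318).

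Other genes with the largest differences between the SSZ1-overexpressing strains were YNR064C (3.21), MNC1 (3.0), the Rab5-type GTPase YPT53 (2.91), GSC2 (2.78), RTA1 (2.74), BAG7 (2.45), RRT1 (2.45), ROQ1 (2.43) and MOH1 (2.42). Their adjusted p lay between 0.00581 and 0.0314, and in each the highest adjusted p came without SSZ1OEΔire1 replicate 1, from 0.0657 for GSC2 to 0.185 for BAG7 and MOH1. All 9 were higher than Δire1 as well, but ROQ1 was not called without Δire1 replicate 3 (adjusted p = 0.0530), with the row as a block (0.0513) or within row 2 (0.0902). MNC1 read −1.41, −0.24 and −1.41 in Δire1, −1.16 and −1.22 in SSZ1OEΔire1, and 2.08, 1.92 and 1.43 in SSZ1OEΔire1Δscj1. YPT53 read −6.51, −5.88 and −7.04 in Δire1, −6.96 and −6.82 in SSZ1OEΔire1, and −3.98, −3.54 and −4.42 in SSZ1OEΔire1Δscj1. Both were thus near the Δire1 range with SSZ1 overexpression alone and well above it with SCJ1 also absent. RRT1 and MOH1 are neighbours on chromosome II in the RefSeq R64 table, and the values of both were highest in SSZ1OEΔire1Δscj1 replicate 2.

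Several groups also differed between the SSZ1-overexpressing strains. Among calcium and calcineurin genes 5 of 19 were higher in SSZ1OEΔire1Δscj1, including CMK2 by 1.59 (adjusted p = 0.00563) and RCN2 by 1.20 (adjusted p = 0.00984). Among daughter-specific genes 11 of 17 were lower, including DSE4 by −1.13 (adjusted p = 0.0174). Among arginine genes 8 of 13 were lower and among lysine genes 0 of 9, including ARG4 by −1.17 (adjusted p = 0.0233). Of ribosomal protein genes 71 of 136 were lower, of COS genes 6 of 11 higher, and of 10 lipid-related Pdr targets 4 higher. KAR2 was lower by −0.74 (adjusted p = 0.00867) and AHA1 by −1.18 (adjusted p = 0.00563). None of the genes in this paragraph but AHA1 passed the test without SSZ1OEΔire1 replicate 1, and none did with the row as a block.

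The marker genes separated some arrays within a strain. LEU2 read 0.48, −0.02 and 2.73 in Δire1, 2.43 and 2.42 in SSZ1OEΔire1, and 2.46, 2.12 and 2.22 in SSZ1OEΔire1Δscj1, so that Δire1 replicate 3 stood with the strains that overexpress SSZ1 and not with its own group (difference 1.20, adjusted p = 0.164). SSZ1 itself was at the Δire1 level on that array. The same array was the only Δire1 array in the slide row of the SSZ1OEΔire1Δscj1 arrays, so the comparisons within that row rest on it. URA3 fell by 0.94 ± 0.21 (adjusted p = 0.0121) and TRP1 rose by 0.53 ± 0.10 (adjusted p = 0.00700). The labels used here do not state the markers of the strains or the markers on any plasmid, and the part of marker differences in the results was not tested.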

How the data were processed

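Each of 8 yeast RNA samples, grouped by the genotype in the labels, was hybridised to a one-colour Agilent array, all on 1 slide. Per the labels' protocols, 100 ng of RNA was labelled with Cy3. The authors deposited spot intensity values from Feature Extraction software (Agilent, version 10.7.1.1, as the submitters' processing notes name it), which per the file headers are background-subtracted and not scaled between arrays. Values of SSZ1OEΔire1Δscj1 replicate 3 were saved with fewer significant digits. The deposited log2 table matched the levels described next once each probe's median was taken off (r = 1.00 per array), with column medians of −0.032 to 0.011. Its scale and centring are not stated in the sources used here.

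Levels were means of log2 processed signal over non-outlier spots (9 to 10 spots per probe, 61657 non-control spots, 6616 probes), from which the 75th percentile of non-control probes on that array was subtracted. A share above 0.5 of spots well above background put a probe in that class, and tests took in genes for which this held on all arrays of 1 strain or more. The brightest probe stood for each of 6576 names (39 had several), and 5903 names matched RefSeq genes of assembly R64, which gave symbols and neighbours only. The test was limma's (limma 3.58.1, R 4.3.3), with 3 group means over all 8 arrays with eBayes, two-sided, with Benjamini-Hochberg adjustment over 6244 genes. For a gene not well above background on any array of 1 strain, the fold is a bound against the lowest signal well above background. The number of arrays limits the precision. On simulated data for SSZ1OEΔire1Δscj1 against Δire1, with 6244 genes, a 1.5-fold change was called in 74% of 100 genes, a 2-fold change in 94% of 50 and a 4-fold change in 100% of 50, with 5 calls among 6044 unchanged genes. The simulated noise was drawn independently for each gene and array, without slide-row effects, brightness trends or a deviating array. These rates therefore say nothing about calls that such effects could give in the real arrays. Plots were drawn with matplotlib 3.10.9.

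Members and the 73 gene lists were chosen with earlier results of these data known. Named were the altered genes and their neighbours, the 20 largest rises and falls with non-overlapping arrays, up to 5 bounds a direction, up to 4 members of each list, mating-type and marker genes, and up to 10 genes differing between the SSZ1-overexpressing strains. Other genes named (AHA1, ANS1, ANT1, APE1, APE3, BNA1, BNA3, BNA4, BNA6, CHS2, CMP2, CNA1, CNB1, CRZ1, CTS1, DAP2, EGT2, GLK1, HXT10, KAR2, NPL4, PDI1, PDR1, PDR12, PRY3, SPS4, THI73, TIR3, TPI1, UME6, YBT1 and YPS1) were chosen after their values were seen. Alternatives covered scaling, background correction, filters, slide row, replicate number, the deposited table and each array left out.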

Additional observations from a re-analysis of the deposited data

How the results depend on the processing

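The number of genes that differed between SSZ1OEΔire1Δscj1 and Δire1 stayed within 1.5 times of 2390 under quantile normalization (2324, 943 higher and 1381 lower), median scaling (2562), normexp background (2442), the deposited table (2402) and both filters on dim probes (2313 and 2364). The share of calls that were higher was 55.8% as tested, 40.6% after quantile normalization, 38.6% on array medians and 97.7% on spike-in spots, where 45 genes were lower. That scaling turned the sign of the falls of ANT1 (0.058), CHS2 (0.047) and RRP3 (0.17), none of which passed the test there (adjusted p = 0.814, 0.843 and 0.512), and it turned the sign of 27 of 73 list medians, against 8 under quantile normalization and 3 within row 2. With the slide row as a block 1065 genes differed, 697 higher and 368 lower (65.4% higher), and within row 2 alone 1156 differed, 770 higher and 386 lower (66.6% higher). Leaving out 1 array at a time gave 1438 to 3166 genes, 837 to 1698 higher and 601 to 1468 lower. The lowest came without Δire1 replicate 3 and the highest without Δire1 replicate 2. For SSZ1OEΔire1Δscj1 against SSZ1OEΔire1 the count was 99 with spike-in scaling, 2 with the row as a block and 3 to 1526 with 1 array left out, and no fit within row 2 was run because no SSZ1OEΔire1 array lies there. The causes of these changes were not tested. Same-numbered arrays did not deviate together for replicates 1 and 2 (correlations of −0.038 and −0.020), whereas the third pair correlated at 0.206, and with the replicate block 2044 genes differed from Δire1 (1179 higher and 865 lower) and 594 from SSZ1OEΔire1.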

Other observations

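Fatty acid oxidation runs in peroxisomes in yeast. Of 21 such genes tested 7 rose and 1 fell in SSZ1OEΔire1Δscj1 against Δire1, which at 38.1% is close to the 38.3% called over all genes, and within row 2 the counts were 7 and 0. The median was 0.43 against 0.019 over all genes, and 0.14 after quantile normalization. The fall was that of the peroxisomal nucleotide carrier ANT1 (−0.34), which was not called without Δire1 replicate 1 or 3 or SSZ1OEΔire1Δscj1 replicate 1 or 3 (adjusted p up to 0.0797). SPS19, a dienoyl-CoA reductase, read −4.98, −3.98 and −4.86 in Δire1, −3.68 and −2.18 in SSZ1OEΔire1, and −2.03, −2.37 and −2.45 in SSZ1OEΔire1Δscj1, a rise of 2.32 ± 0.40 (adjusted p = 0.00527 by limma). The peroxisomal isocitrate dehydrogenase IDP3 rose by 1.37 ± 0.21. Among hexose transporters that rose, HXT9 read −4.33, −4.44 and −4.52 in Δire1, −2.94 and −2.51 in SSZ1OEΔire1, and −2.43, −2.84 and −2.51 in SSZ1OEΔire1Δscj1, a rise of 1.84 ± 0.15 (adjusted p = 0.000440), and HXT10 rose by 1.59 ± 0.15. For HXT9 the strains that overexpress SSZ1 overlapped each other, and both lay above Δire1. Of 24 haploid and pheromone-response genes 8 rose and 7 fell (median 0.13), with 5 and 1 within row 2, and the falls numbered 4 without Δire1 replicate 1 or SSZ1OEΔire1Δscj1 replicate 1 and 2 without Δire1 replicate 3. Among those that rose, FIG1, a mating-induced membrane protein gene, rose by 2.31 ± 0.30 and PRM4, also pheromone-regulated, by 1.29 ± 0.21. CIT2, the peroxisomal citrate synthase, read −0.08, 0.84 and 0.21 in Δire1, −0.50 and 0.30 in SSZ1OEΔire1, and 2.23, 2.18 and 1.43 in SSZ1OEΔire1Δscj1, a rise of 1.62 ± 0.33 (adjusted p = 0.00827). All 3 SSZ1OEΔire1Δscj1 arrays were above the other 5 for CIT2. With the slide row as a block CIT2 was not called (adjusted p = 0.0525), and within row 2 PRM4 was not (0.0574).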
